A study of Mus musculus with 6 samples.

Results

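The translation initiation and elongation factors were taken as every gene whose symbol in the array annotation starts with Eif or Eef followed by a digit and stands alone on a probe set, a group of short probes for 1 transcript. The annotation gave 60 such genes among 20679 genes on the array, read by 152 of 45037 probe sets, and 42 of the 60 had several probe sets. For each gene the probe set with the highest mean over all arrays was used. A further 19 probe sets named a factor together with another locus and were kept apart, so that Eif1, Eif2s2, Eif2s3x and Eif3j, which occurred only there, are no members. The rule also took in Eif2c1 to Eif2c4, the older names of 4 Argonaute genes (Ago1 to Ago4), whose proteins act in small RNA silencing and are not initiation factors.

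Protein synthesis begins when the small ribosomal subunit, loaded by eIF2 with the initiator tRNA and helped by eIF1, eIF1A, eIF3 and eIF5, joins an mRNA whose cap is held by eIF4E, eIF4G and the eIF4A helicase and scans for the start codon. eEF1A then brings each aminoacyl-tRNA to the ribosome and eEF2 moves the ribosome along the message. Cells set the rate by phosphorylating eIF2, by binding eIF4E with the 4E-BPs and by inhibiting eEF2 through its kinase eEF2K, and adult heart and skeletal muscle are known to use the eEF1A2 form in place of eEF1A1.

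RNA of mouse heart cells was measured on 6 whole-genome Affymetrix arrays. CPC (3 arrays) were cardiac progenitor cells that grew out of dedifferentiated and dividing cardiomyocytes of bi-transgenic mice during prolonged culture, and Ctl (3 arrays) were cardiomyocytes of adult bi-transgenic mice. Both groups thus shared the transgenic background, and CPC differed from Ctl in culture time as well as in cell state, which cannot be told apart. In the study, bi-transgenic mice carry αMHC-MCM, a tamoxifen-inducible Cre driven in cardiomyocytes, with a fluorescent reporter, but the labels of the arrays state neither the alleles, nor tamoxifen, age in weeks or sex. The labels speak of cDNA made from single cells and do not say how many cells an array held. They name no animal or culture, so p-values measure only the spread between these arrays, which may be technical, and so few arrays limit how precise any value is.

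Values are log2 intensities, and differences are CPC minus Ctl. A gene passed at an adjusted p under 0.05 in limma (Benjamini-Hochberg over all 45037 probe sets). Array medians lay between 7.32 and 7.47, and a level of 6.55, the highest lower quartile of any array, was taken as background. All 6 cardiomyocyte markers (Myh6, Tnnt2, Tnni3, Actn2, Ryr2, Myl2) were lower in CPC, with a summed level of 9.79 to 10.27 against 16.32 to 16.40 in Ctl. Of 6 fibroblast markers, Col1a1 and Col1a2 passed as higher, with a summed level of 12.63 to 13.12 against 10.63 to 11.34. None of the endothelial (5 measured), macrophage (4) or smooth muscle (5) markers passed, with summed levels of 9.78 to 10.07, 10.47 to 10.75 and 11.63 to 13.06 in CPC against 9.84 to 11.43, 10.18 to 10.33 and 10.25 to 11.26 in Ctl. The part of these cell type markers in the factor results was not tested, and fewer cells of a type and less RNA per cell cannot be told apart on these arrays.

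CPC had higher levels of 5 factor genes and lower levels of 2. Eif3f, Eif3c, Eif5a, Eif4a3 and Eef2 rose by between 1.59 and 2.17 on the log2 scale, while Eif5 fell by 2.47 and Eef2k fell by 3.10. The other 53 did not pass. The share that rose was 8.33%, against 1.15% of all genes, and the share that fell was 3.33%, against 4.47%. At an unadjusted p under 0.05, 14 factors were higher and 6 lower, where 11.0% and 10.2% of all genes were. All CPC arrays lay above all Ctl arrays for 15 factors (25.0%), close to the 21.9% of all genes, and below them for 6, where the share of all genes was 11.0%. A positive difference was found for 40 factors (66.7%), against 68.1% of all genes, with a median of 0.46 against 0.19. The split of directions was thus near that of all genes, while the share of higher calls was above it. The factors were brighter than most genes, with a median level of 9.65 against 7.83 over all genes. When only probe sets above the median level were fitted, 8.62% of the 58 factors kept rose, against 2.03% of the genes kept. The part of brightness in the share of calls beyond that filter was not tested.

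**Figure D1:**
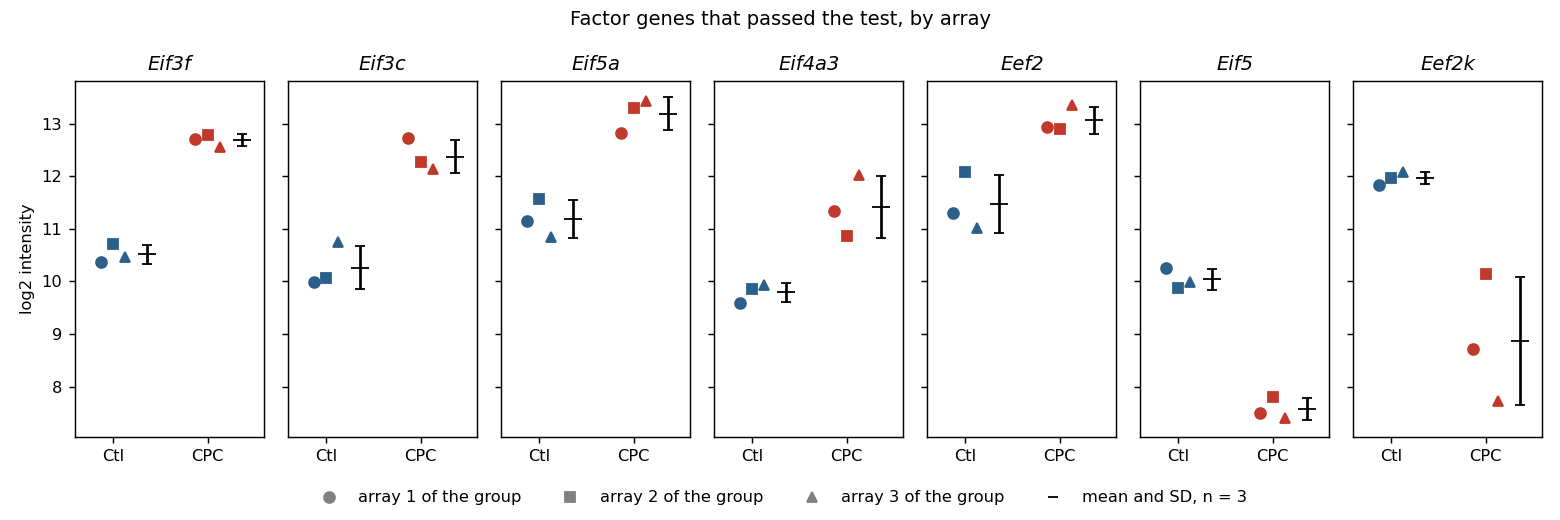
Log2 intensity of the 7 factor genes that passed the test, by array (n = 3 per group; circle, square and triangle for arrays 1, 2 and 3, black bars for mean and SD). The groups do not overlap in any of the 7 panels, and Eef2k has the widest CPC spread, from 7.73 to 10.14.

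Eif3f, a subunit of the eIF3 complex that bridges the small ribosomal subunit and the cap complex, read 12.71, 12.78 and 12.56 on the 3 CPC arrays and 10.36, 10.72 and 10.46 on the 3 Ctl arrays. The difference was 2.17 (SE 0.17, 4.50-fold, adjusted p = 0.00133). The groups lay far apart with little spread in either, and the gene has 1 probe set. Eif3c, a core subunit of the same complex, read 12.72, 12.27 and 12.13 in CPC and 9.98, 10.07 and 10.74 in Ctl (difference 2.11, SE 0.28, adjusted p = 0.00962). Here the probe sets parted. A second one of the kind that can match several transcripts gave 2.13 (adjusted p = 0.00901), whereas the 2 gene-specific ones, 1415858_at and 1415859_at, gave 0.82 and 0.13 and did not pass. The CPC 3 array was at 8.93 and 8.73 on those, below every Ctl array, and CPC 1 and CPC 2 were above every Ctl array. Eif3c was therefore higher on 2 of its 4 probe sets only.

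Eif5a, which carries the modified amino acid hypusine and helps the ribosome through difficult peptide bonds, read 12.83, 13.30 and 13.43 in CPC and 11.15, 11.56 and 10.85 in Ctl. It rose by 2.00 (SE 0.26, adjusted p = 0.00916), and its second probe set gave 1.86 (adjusted p = 0.225), with 12.04, 11.37 and 9.35 against 8.94, 9.73 and 8.50. All CPC arrays of the first probe set were above all Ctl arrays, while CPC 3 lay within the Ctl range on the second. Both, 1451470_s_at and 1437859_x_at, are of the kind that can match several transcripts, so the gene has no gene-specific reading here. Eif4a3, a helicase of the exon junction complex that marks spliced mRNA, read 11.34, 10.86 and 12.03 in CPC and 9.59, 9.85 and 9.93 in Ctl (difference 1.62, SE 0.32, adjusted p = 0.0414). Eef2, the translocase of elongation, read 12.93, 12.90 and 13.35 in CPC and 11.31, 12.08 and 11.01 in Ctl (difference 1.59, SE 0.31, adjusted p = 0.0417), and its dim second probe set gave 0.86 (adjusted p = 0.118). Neither gene overlapped between groups, but both calls lie close to the threshold: leaving out 1 array ended the call in 4 of 6 cases for Eif4a3 (without CPC 1 or any 1 Ctl array) and in 5 of 6 for Eef2 (all but Ctl 2), with adjusted p up to 0.162 and 0.163.

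Eif5, which makes eIF2 hydrolyse its GTP at the start codon, fell on the probe set used. It read 7.50, 7.80 and 7.40 in CPC and 10.25, 9.88 and 9.98 in Ctl, a difference of -2.47 (SE 0.19, adjusted p = 0.00124). That probe set, 1456256_at, is the only one that names Eif5 alone. On 4 others that name Eif5 with another locus the differences were -1.71, -1.62, -1.26 and 0.86, and none passed. In 3 of these 4 the CPC 3 array, at 8.05, 8.33 and 7.30, was the lowest, and 1454664_a_at had all CPC arrays (12.01, 11.92 and 11.12) above all Ctl arrays (10.98, 10.75 and 10.73). The direction for Eif5 therefore depended on the probe set.

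Eef2k, the kinase that phosphorylates and inhibits eEF2, had the largest difference of all 60 factors. It read 8.72, 10.14 and 7.73 in CPC and 11.84, 11.97 and 12.08 in Ctl (difference -3.10, SE 0.58, 8.56-fold lower, adjusted p = 0.0361). The Ctl arrays were close together and the CPC arrays spread over more than 2 log2 units below them. The other probe sets, at 5.77 to 6.21 and 8.04 to 8.56 in CPC, gave 0.07 and 0.02. The first of these, 1439860_at, lay under the background level on all 6 arrays and so could show no fall. The second, 1449013_at, lay above that level on all 6 arrays and so could have shown a fall. Its means were 8.24 in CPC and 8.23 in Ctl (adjusted p = 0.969). The probe set that fell, 1437829_s_at, is of the kind that can match several transcripts. The call was lost without CPC 1 and without any 1 of the Ctl arrays, with adjusted p up to 0.143. So the enzyme gene Eef2 and the gene of its inhibitory kinase passed in opposite directions, each on 1 probe set and near the threshold.

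The promoters of the called genes are shown because CACGTG, the E-box letters that MYC family and related factors bind, occurred more often in the factor windows than in others. RefSeq windows (GRCm38.p6, from 250 bases before to 50 after the start) were found for 48 of the 60 genes, and 12 of them (25.0%) held CACGTG, against 1559 of 17492 protein-coding genes (8.91%). The 6 letters read the same on both strands. By window the shares were 21.9% of 64 and 7.84% of 21263. Eif3f, Eef2, Eif5a and Eef2k held it and Eif3c, Eif4a3 and Eif5 did not. The windows below run 5′ to 3′ on the gene's strand, with CACGTG in capitals; it begins at -68, -43, -74 and -31 from the start in the first 4, and Eif5 is shown as a window without it. For Eif5a and Eef2k, with 6 and 3 windows, the one whose motif lies nearest the start is given.
Eif3f (chr7:108934165-108934464, plus strand): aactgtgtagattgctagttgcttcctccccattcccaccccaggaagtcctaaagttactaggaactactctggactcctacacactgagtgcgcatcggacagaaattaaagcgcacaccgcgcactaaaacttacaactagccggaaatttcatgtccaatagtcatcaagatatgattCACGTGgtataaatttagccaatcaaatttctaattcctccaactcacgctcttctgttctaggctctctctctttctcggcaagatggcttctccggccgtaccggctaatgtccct
Eef2 (chr10:81176381-81176680, plus strand): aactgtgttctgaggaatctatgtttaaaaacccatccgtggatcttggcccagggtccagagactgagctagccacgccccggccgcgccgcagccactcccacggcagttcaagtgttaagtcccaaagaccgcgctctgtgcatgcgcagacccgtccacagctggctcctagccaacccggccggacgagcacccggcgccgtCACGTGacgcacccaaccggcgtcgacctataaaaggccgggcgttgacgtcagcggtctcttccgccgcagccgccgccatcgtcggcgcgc
Eif5a (chr11:69921337-69921636, minus strand): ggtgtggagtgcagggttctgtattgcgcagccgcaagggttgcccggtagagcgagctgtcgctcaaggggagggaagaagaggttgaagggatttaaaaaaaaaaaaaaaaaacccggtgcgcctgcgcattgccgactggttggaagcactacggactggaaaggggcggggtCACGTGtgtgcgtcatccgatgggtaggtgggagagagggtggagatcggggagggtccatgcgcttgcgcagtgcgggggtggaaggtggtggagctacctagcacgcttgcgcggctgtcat
Eef2k (chr7:120842581-120842880, plus strand): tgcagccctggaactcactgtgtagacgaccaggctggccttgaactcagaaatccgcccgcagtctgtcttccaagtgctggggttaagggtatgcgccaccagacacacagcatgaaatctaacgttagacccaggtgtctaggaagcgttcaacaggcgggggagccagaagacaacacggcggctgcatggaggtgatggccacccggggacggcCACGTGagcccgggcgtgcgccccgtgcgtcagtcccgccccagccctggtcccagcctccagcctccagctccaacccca
Eif5 (chr12:111537851-111538150, plus strand): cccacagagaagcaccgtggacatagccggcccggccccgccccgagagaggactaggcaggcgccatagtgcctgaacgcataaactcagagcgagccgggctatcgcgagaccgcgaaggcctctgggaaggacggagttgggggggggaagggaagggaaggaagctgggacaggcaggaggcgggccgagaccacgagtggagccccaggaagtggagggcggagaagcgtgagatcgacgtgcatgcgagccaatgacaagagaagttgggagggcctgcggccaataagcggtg
The motif stood in windows of genes that rose (3 of 5) and of 1 that fell, and a match is a description of the letters, not of binding.

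**Figure D2:**
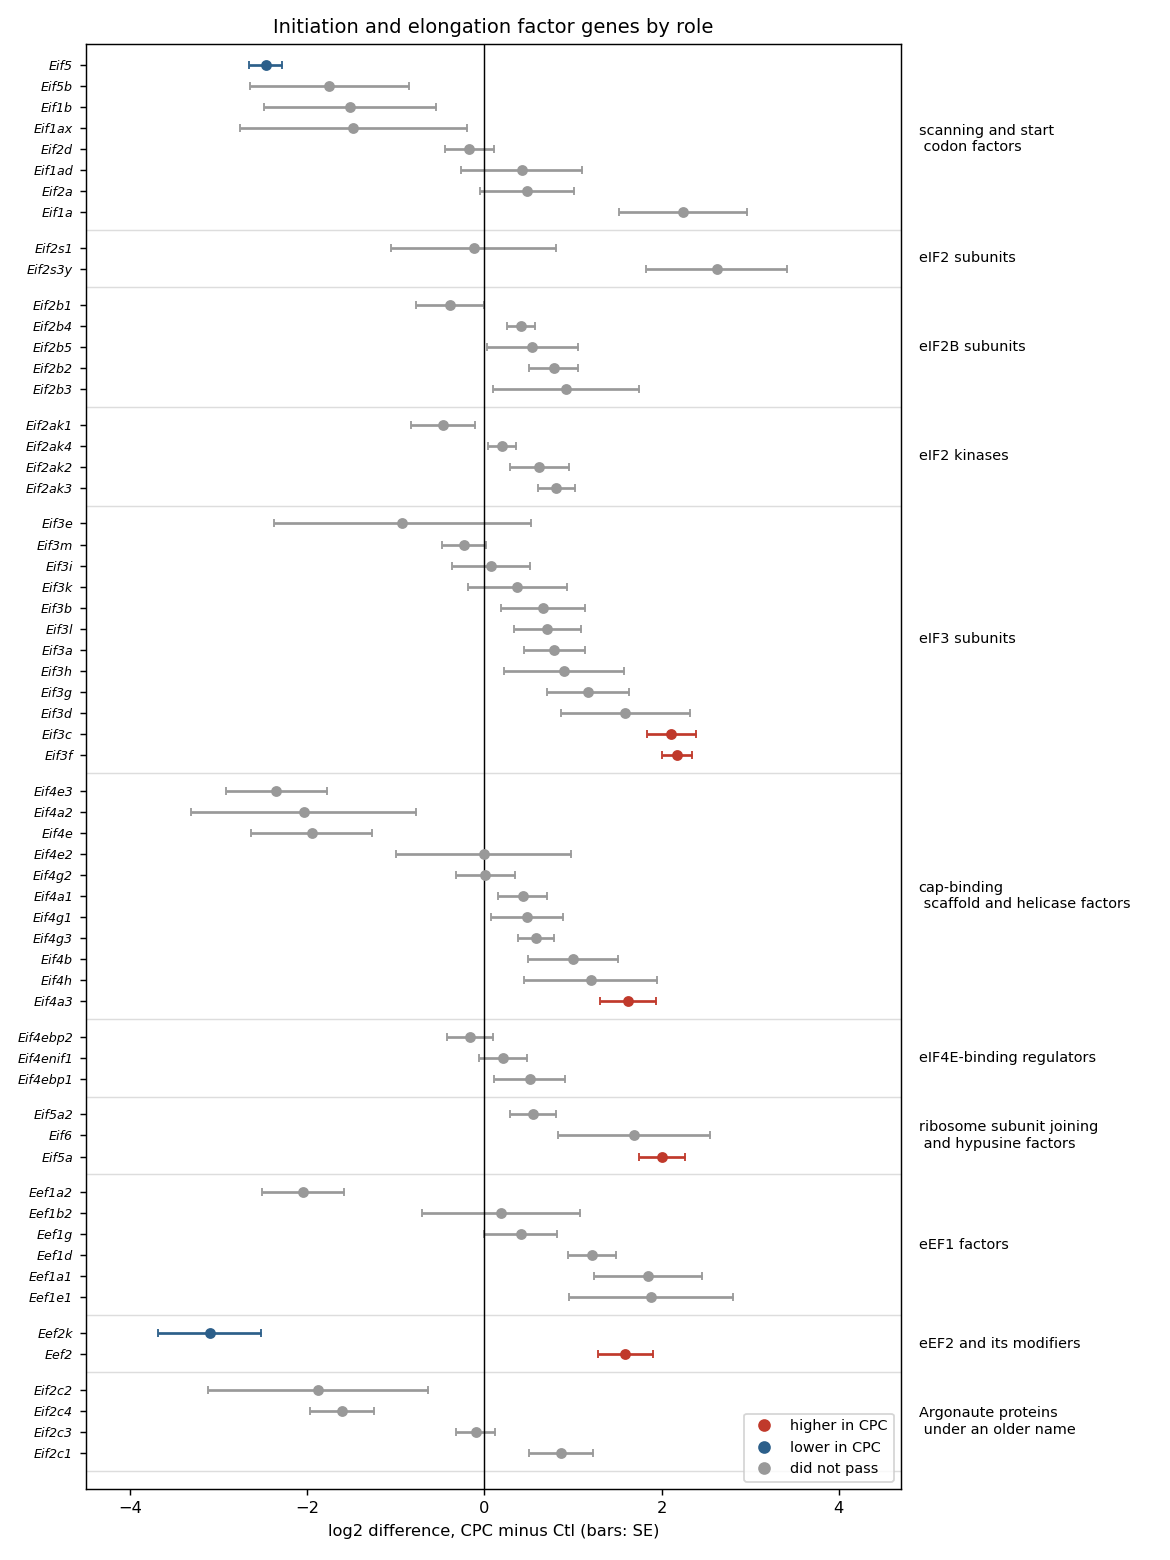
Log2 difference, CPC minus Ctl, of the 60 factor genes grouped by role (points, with SE as bars; red passed as higher, blue passed as lower, grey did not pass). The values run from -3.10 for Eef2k to 2.62 for Eif2s3y, whose Ctl arrays lie under background, and 10 of the 12 eIF3 subunits lie above 0.

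Among the scanning and start codon factors, 1 of 8 fell (Eif5), none rose, and 5 differences were negative (median -0.82). These 8 include Eif5b (-1.75, adjusted p = 0.322), which could also be counted with the joining factors. Eif1a (2.24, adjusted p = 0.162) and Eif1ax (-1.48, adjusted p = 0.509), genes of the eIF1A factor, had opposite signs and neither passed on the probe set used. The second probe set of Eif1a gave -0.13. On 1449576_at, however, Eif1ax was lower in CPC, with 7.59, 6.99 and 6.98 against 8.56, 8.19 and 8.51 (-1.24, SE 0.23, adjusted p = 0.0350) and no overlap. Eif1b, a close relative of the start codon factor eIF1, read 11.84, 8.39 and 8.30 in CPC and 10.90, 11.55 and 10.63 in Ctl (difference -1.52, adjusted p = 0.399). CPC 1 was above every Ctl array and the other CPC arrays far below. Without CPC 1 the difference was -2.68 and passed (adjusted p = 0.0116), which is no support for a fall, as the array that parted was dropped.

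The eIF2 complex itself was read through Eif2s1 and Eif2s3y. Eif2s1, the alpha subunit that the stress kinases phosphorylate, read 12.06, 10.39 and 8.21 in CPC and 10.23, 10.87 and 9.94 in Ctl (difference -0.12, SE 0.93, adjusted p = 0.944). The CPC arrays ran from above to below all Ctl arrays, and without CPC 3 the difference was 0.88 (adjusted p = 0.456). Of the 6 probe sets that name Eif2s2, the beta subunit, together with another locus, 1417712_at was higher (1.27, adjusted p = 0.0197) and 1448819_at lower (-0.79, adjusted p = 0.0381).

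Eif2s3y, the gamma subunit gene on the Y chromosome, had the highest measured difference but did not pass, and its Ctl level is only a bound. It read 9.33, 8.77 and 6.19 in CPC and 5.65, 5.55 and 5.22 in Ctl (2.62, SE 0.80, adjusted p = 0.145). All Ctl arrays and CPC 3 were under the background level of 6.55. The CPC mean lay 1.54 above that level on the log2 scale (2.91-fold). That is no lower bound of the difference, because the mean takes in CPC 3. Without CPC 3 the gene passed on the probe set used (3.57, adjusted p = 0.00359), which is no support for a rise, as the CPC array nearest to Ctl was dropped. The second probe set, 1431642_at, read 7.12, 6.22 and 6.93 in CPC and 5.90, 5.87 and 5.64 in Ctl (0.95, adjusted p = 0.119). There CPC 2, not CPC 3, was under background. Its X-linked partner Eif2s3x, on probe sets shared with another locus, gave -1.30, -1.51 and -2.04, none of which passed. Of the other sex-linked genes, Xist alone passed. Xist, the RNA that silences an X chromosome in female cells, was lower in CPC on all 3 probe sets (-3.01, -3.30 and -3.79, adjusted p 0.000707, 0.00399 and 0.00571). Ddx3y, another Y-linked gene, read 7.97, 7.78 and 5.37 in CPC on 1426438_at and 4.73, 4.80 and 4.65 in Ctl (adjusted p = 0.137), while no probe set of Kdm5d or Uty passed. The labels give no sex, so the sex of the animals and the cell state cannot be told apart for Eif2s3y. The same holds for the other factors, among them the X-linked Eif1ax.

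None of the 5 subunits of eIF2B, the exchange factor that recharges eIF2 with GTP, passed (median 0.54, range -0.39 to 0.92). Eif2b3 had the largest value, at 10.57, 7.16 and 8.56 in CPC and 8.03, 7.45 and 8.05 in Ctl (0.92, adjusted p = 0.523). CPC 2 was below every Ctl array, and without CPC 1 the difference was 0.02. None of the 4 eIF2 kinases passed either (median 0.41). Eif2ak3, which encodes PERK, the kinase of endoplasmic reticulum stress, read 7.29, 7.82 and 7.90 in CPC and 6.84, 6.90 and 6.83 in Ctl (0.81, SE 0.21, adjusted p = 0.0926). Its groups did not overlap, though all levels were low.

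Of 12 eIF3 subunits, 2 rose (Eif3f and Eif3c) and none fell, with 10 positive differences and a median of 0.75. Eif3d (1.59, adjusted p = 0.280) and Eif3g (1.17, adjusted p = 0.226) had the next largest values. Eif3l gave 0.71 (adjusted p = 0.332) on the probe set used but was higher on 1437948_x_at (9.46, 10.02 and 9.09 against 7.31, 8.24 and 7.65, difference 1.79, adjusted p = 0.0359). Eif3e was the lowest of the group on the probe set used (-0.93, SE 1.45, adjusted p = 0.706). It read 13.36 and 13.20 on CPC 1 and CPC 2, above all Ctl arrays at 12.31 to 12.60, and 7.92 on CPC 3. The other probe sets of Eif3e gave 0.44, 0.32 and 0.89. Eif3a gave 0.79 on the probe set used and -1.76, -0.27 and -0.04 on the others, and Eif3m gave -0.23 and 0.92. None of these passed.

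Of 11 cap-binding, scaffold and helicase factors, 1 rose (Eif4a3) and none fell (median 0.43). Eif4e, the cap-binding protein, read 8.98, 11.18 and 8.60 in CPC and 11.78, 11.15 and 11.69 in Ctl (-1.95, SE 0.68, adjusted p = 0.189). CPC 2 lay in the Ctl range, and without it the difference was -2.75 and passed (adjusted p = 0.00789). That is no support for a fall, as the CPC array that parted was dropped. The Eif4e probe sets 1444010_at and 1450908_at gave 0.63 and -0.32 (adjusted p = 0.283 and 0.844). On 1450909_at the means were 7.1 in CPC and 9.1 in Ctl, which did not pass either (adjusted p = 0.226). Eif4e3, a less common cap-binding relative, read 7.92, 8.14 and 8.71 in CPC and 9.67, 11.84 and 10.31 in Ctl. Its groups did not overlap, and the difference of -2.35 (SE 0.57) missed the threshold at an adjusted p of 0.0811; its second probe set gave -2.34. Eif4g1 (0.48) and Eif4g3 (0.58), the scaffold proteins, did not pass (adjusted p = 0.508 and 0.177).

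None of the 3 regulators that bind eIF4E passed (median 0.21). Eif4ebp1, a repressor that mTORC1 inactivates, gave 0.51 (9.06, 8.95 and 10.38 against 9.01, 8.81 and 9.04, adjusted p = 0.468) and 0.06 without CPC 3, and Eif4ebp2 gave -0.16 (adjusted p = 0.720). Of the joining and hypusine factors, Eif5a rose and Eif6 and Eif5a2 did not pass. Eif6, which keeps the large subunit from joining early, read 10.96, 11.98 and 8.50 in CPC and 8.56, 9.19 and 8.63 in Ctl (1.69, SE 0.86, adjusted p = 0.317). CPC 1 and CPC 2 were above every Ctl array and CPC 3 was below them all. Without CPC 3, the array that parted, Eif6 passed at 2.68 (adjusted p = 0.0242), which is no support for a rise. The second probe set of Eif6, 1431582_at, gave -0.14 (adjusted p = 0.675), with 7.75, 8.04 and 7.95 against 7.79, 8.07 and 8.28.

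None of the 6 eEF1 genes passed on the probe set used (median 0.81). Eef1d, a subunit of the complex that recharges eEF1A with GTP, came near with 1.21 (adjusted p = 0.0676), and its probe set 1449506_a_at was higher in CPC, with 12.41, 11.68 and 12.09 against 10.70, 10.99 and 10.30 (1.40, adjusted p = 0.0397). Eef1a1, the widespread form of the tRNA carrier, read 13.85, 13.70 and 11.68 in CPC and 11.08, 10.92 and 11.69 in Ctl (1.85, SE 0.61, adjusted p = 0.170). CPC 1 and CPC 2 stood more than 2 log2 units above the Ctl arrays, while CPC 3 and Ctl 3 were level. Without CPC 3, the array that parted, the gene passed (2.54, adjusted p = 0.0113), which is no support for a rise. With any other array left out it did not pass (adjusted p 0.217 to 0.39). Eef1a2, the muscle and neuron form, read 8.14, 8.58 and 8.18 in CPC and 10.36, 11.26 and 9.43 in Ctl (-2.05, SE 0.46, adjusted p = 0.0660). All CPC arrays were below all Ctl arrays, and the value missed the threshold. Eef1a2 passed without Ctl 3 (adjusted p = 0.0325), which is no support for a fall, as the Ctl array nearest to CPC was dropped. With any other array left out it did not pass (adjusted p 0.0864 to 0.204).

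Set against each other within each array, which cancels the scaling of the array, Eef1a2 minus Eef1a1 was -5.72, -5.11 and -3.50 in CPC and -0.72, 0.35 and -2.26 in Ctl, a shift of -3.90. The groups did not overlap, and the exact two-sided permutation p was 0.1, the smallest that 3 against 3 arrays can give, or 0.2 after adjustment over 6 paralog pairs. Eif4a2 minus Eif4a1, the helicase pair, shifted by -2.48 (exact p = 0.1, adjusted 0.2), with -5.20 on CPC 3 beside 0.19 and 0.57 on the other CPC arrays and 0.87 to 1.18 in Ctl. Eif5a2 minus Eif5a shifted by -1.46 with no overlap (exact p = 0.1, adjusted 0.2). The pairs Eif4ebp1 and Eif4ebp2 (0.67), Eif4g3 and Eif4g1 (0.10) and Eif4e3 and Eif4e (-0.40) overlapped between groups, with exact permutation p of 0.2, 0.9 and 0.8. Over the mean of the probe sets these pairs shifted by 0.38, -0.44 and -1.44, with exact permutation p of 0.4, 0.6 and 0.1.

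**Figure D3:**
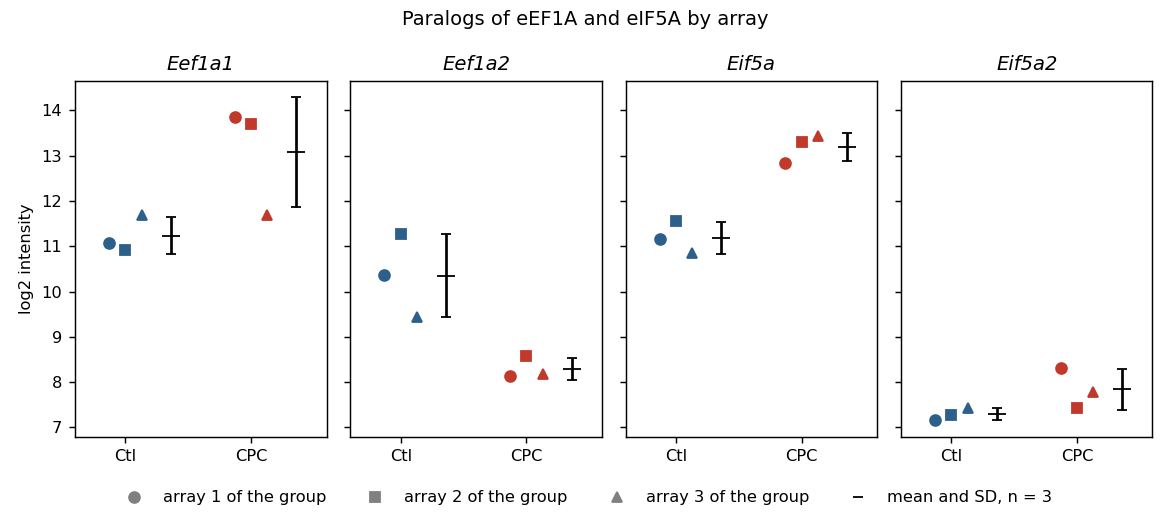
Log2 intensity of the eEF1A and eIF5A paralogs by array (n = 3 per group, symbols by array number, black bars for mean and SD). Eef1a2 lies lower on all CPC arrays, at 8.14 to 8.58, whereas Eef1a1 lies higher on CPC 1 and CPC 2 but at 11.68 on CPC 3; levels of different probe sets are not to be compared with each other.

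The 4 Argonaute genes taken in by the older symbols did not pass (median -0.86). Eif2c2 (Ago2), the slicing Argonaute, read 10.31, 10.68 and 6.03 in CPC and 10.49, 11.58 and 10.60 in Ctl (-1.88, SE 1.24, adjusted p = 0.410), with CPC 3 under background. Without CPC 3 the difference was -0.39, and its other 3 probe sets gave 0.96, 1.08 and -0.71. Eif2c4 (Ago4) read 8.35, 7.10 and 7.07 against 9.08, 9.16 and 9.11 and came nearest to the threshold (-1.61, adjusted p = 0.0668).

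The probe sets of 1 gene did not always run the same way. Among the 42 factors with several probe sets, 25 (59.5%) had differences of both signs, many of them near 0, against 40.5% of the 9608 genes with several probe sets. Of the 152 probe sets, 10 were higher and 5 lower, against 1.06% and 4.38% of all probe sets. Eif4e2, a cap-binding protein that represses translation, was the only one of the 60 genes with a probe set passing in each direction, a state found in 4 of these 9608 genes (0.0416%). On 1435803_a_at it read 10.74, 10.44 and 12.67 in CPC and 7.01, 6.81 and 6.97 in Ctl (4.35, SE 0.58, adjusted p = 0.0104). On 1455108_at it read 7.22, 6.74 and 7.16 in CPC and 10.21, 11.01 and 10.43 in Ctl (-3.51, SE 0.26, adjusted p = 0.00120). Neither overlapped between groups, and the probe set with the highest mean, 1421985_a_at, gave -0.01.

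Eif4g2, a scaffold relative that serves cap-independent initiation, gave 0.01 on the probe set used, yet 1428362_at was lower in CPC (9.83, 9.65 and 9.46 against 11.34, 11.32 and 11.35, difference -1.69, adjusted p = 0.00307). For Eif4a1, the main helicase, the probe set used gave 0.43 (adjusted p = 0.403) and 1430980_a_at was higher (12.58, 11.89 and 12.13 against 10.84, 11.14 and 10.86, difference 1.26, adjusted p = 0.0301). Eif4e2, Eif4g2 and Eif4a1 are named here because of these values. The files pair probe sets with gene names only, so which transcript end or isoform each one reads was not tested. As a reading of RNA and cDNA length, the Actb control probe set at the 3′ end minus the one at the 5′ end was 0.00, 0.05 and 0.37 in CPC and -0.85, -0.41 and -0.54 in Ctl (exact two-sided permutation p = 0.1), on the log2 scale, and the same value for Gapdh was 2.09, 2.55 and 3.53 against 2.12, 1.77 and 2.21 (exact p = 0.3). The part of these control values in the probe set results was not tested.

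**Figure D4:**
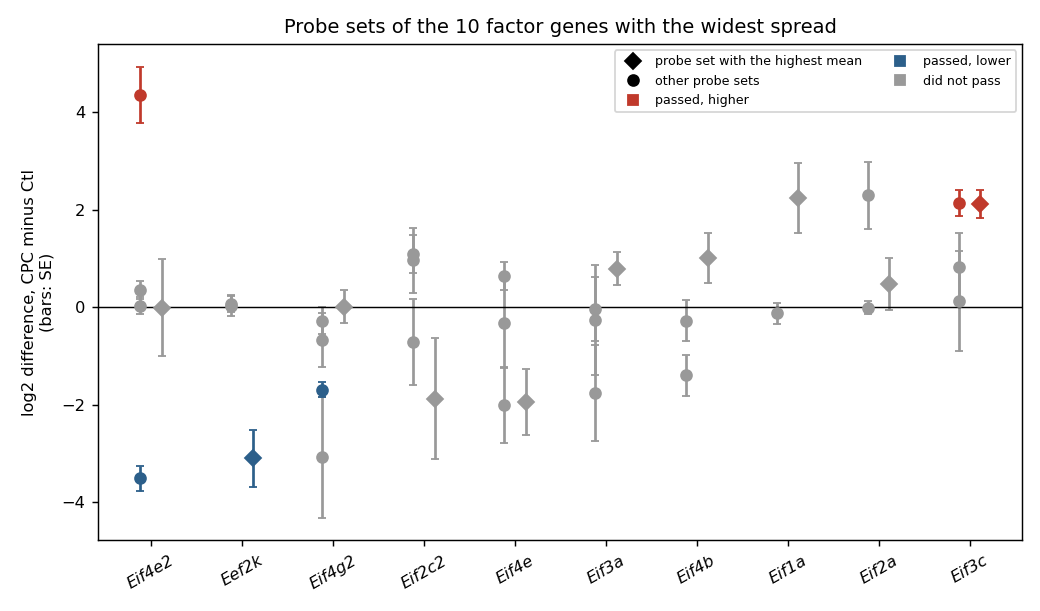
Log2 difference, CPC minus Ctl, of every probe set of the 10 factor genes whose probe sets spread most (diamond, probe set with the highest mean; circles, other probe sets; bars, SE; red and blue passed as higher and lower). Eif4e2 spans -3.51 to 4.35, and Eef2k passes on 1 of 3 probe sets, of which 1 lies under background.

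The factors varied more among CPC arrays than among Ctl arrays, with a median SD of 0.739 against 0.315 (0.322 and 0.186 over all genes). CPC 3 stood apart. The median level of the 60 factors was 10.31, 10.21 and 8.64 in CPC and 9.67, 9.87 and 9.58 in Ctl, while the median of all genes lay between 7.70 and 7.85 on every array. On CPC 3, 19 factors had their lowest value of the 6 arrays, against 11.2% of all genes and 20.0% of those above the median level, and 12 had their highest, against 45.0% of all genes. Of the 60, 7 were lower there than on any other array by over 1 log2 unit, against 8.17% of genes above the median level. CPC 1 and CPC 2 both exceeded all Ctl arrays in 31 factors (26.0% of all genes), among them Eef1a1, Eif6 and Eif3d, and lay below them in 8 (16.0% of all genes). Without CPC 3, 14 factors (23.3%) passed as higher and 2 (3.33%) as lower, with 4 of the 5 higher calls kept, while the share of all genes was 2.56% higher and 4.36% lower.

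**Figure D5:**
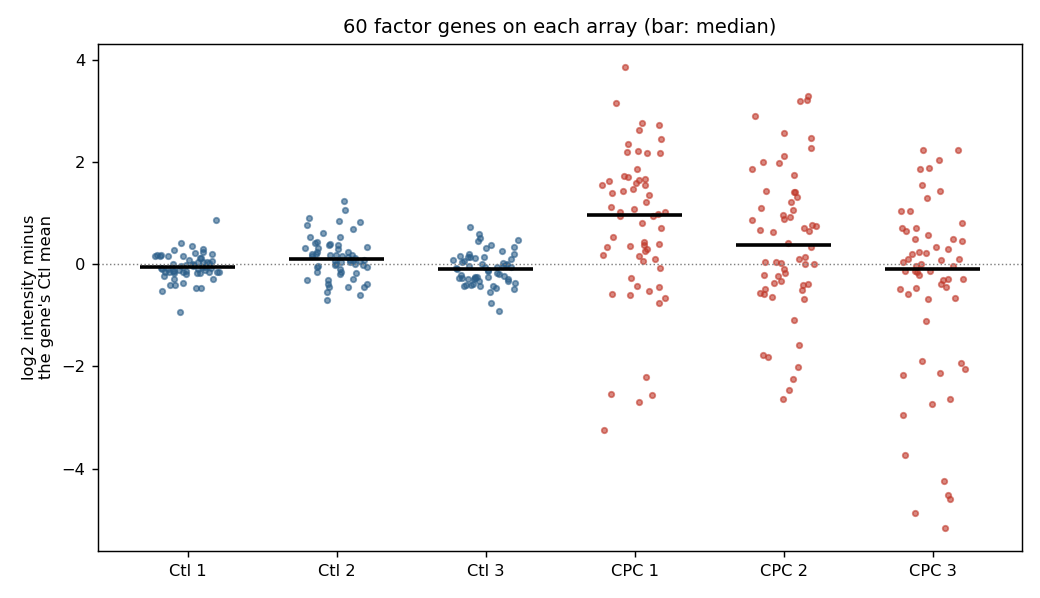
Each of the 60 factor genes on each array, as log2 intensity minus that gene's Ctl mean (points; bar, median; sideways scatter is for display). The medians are 0.97 and 0.37 on CPC 1 and CPC 2 and -0.09 on CPC 3, where the points reach down to -5.16.

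Beyond the named factors, 47 of 50 listed genes of the same pathway were measured, of which 1 rose and 2 fell (median -0.08), shares near the 1.15% and 4.47% of all genes. Pabpc1, the poly(A)-binding protein that links the message's tail to eIF4G, read 12.10, 11.79 and 11.50 in CPC and 7.99, 8.23 and 8.42 in Ctl, a rise of 3.58 (SE 0.22, adjusted p = 0.000596). Gfm1, a mitochondrial elongation factor, fell by 3.39 (9.05, 8.98 and 7.26 against 11.86, 11.72 and 11.88, adjusted p = 0.0140). Nck1, an adaptor protein listed with the stress response, fell by 1.57 (adjusted p = 0.0252). By list, none of 5 termination and recycling genes, 13 other cytosolic helpers or 10 mTORC1 and MNK genes passed. Atf4, the transcription factor translated when eIF2 is phosphorylated, gave 0.59 (adjusted p = 0.182) and Mtor, the kinase upstream of the 4E-BPs, gave -0.64 (adjusted p = 0.394). These are transcript levels and hold no measure of phosphorylation or of translation.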

How the data were processed

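The authors deposited log2 intensities of 6 mouse whole-genome Affymetrix arrays; the submitters' processing notes name RMA and Partek without versions. A second deposited table holds the authors' own signed fold change, p-value and adjusted p; only its gene names were used here. No genome build was given for these files. The 64 control probe sets were left out. The 3 CPC and 3 Ctl arrays were fitted with limma 3.58.1 under R 4.3.3 (lmFit, eBayes, two-sided, no filter, Benjamini-Hochberg over 45037 probe sets); the exact permutation tests used scipy 1.17.1. The paper's methods given here state no test for the arrays. The code was tested on simulated data.

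Named were all genes past the threshold, the largest absolute difference in each role, both genes of 6 paralog pairs, Eif2s1, Eif4e, Eef2, Eif6, and of the further pathway genes those past the threshold with Pabpc1, Atf4 and Mtor. Others are examples chosen after their values were seen. Eif1b minus Eif1 was not run, since Eif1 shares its probe sets with another locus. The members and lists were chosen with earlier results of these data known. As alternatives, single arrays were left out or weighted, the replicate number was blocked, values were rescaled, dim probe sets were dropped, and the probe set per gene, the threshold and the moderation were varied.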

Additional observations from a re-analysis of the deposited data

How the results depend on the processing

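The counts of 5 higher and 2 lower factors changed most with the weight given to single arrays: array weights, from 0.231 for CPC 3 to 5.92 for CPC 2, gave 25 higher (41.7%) and 7 lower (11.7%), where 22.7% and 14.0% of all genes passed. With each array left out in turn, 2 to 14 factors were higher and 1 to 3 lower. Of all genes, 0.455% to 2.56% were then higher and 2.39% to 5.54% lower. The extremes of the higher count came from dropping Ctl 1 (3.33% of factors) and CPC 3 (23.3%). Dropping Ctl 1 or Ctl 2 left 1 lower. Replicate numbers did not pair the arrays (correlations of deviations -0.0471, -0.0133 and -0.108). The replicate block gave 2 higher and 1 lower (3.33% and 1.67%, against 0.633% and 2.88% of all genes). A test without moderation gave 1 and 1 (1.67% each, against 0.358% and 1.46% of all genes). The trended and robust variance model gave 3 higher (5.0%, against 0.798%). An adjusted p under 0.01 gave 3 and 1 and under 0.1 gave 5 lower, and the shares of all genes were not counted there. The filter on dim probe sets gave 5 higher (8.62%, against 2.03% of the genes kept) and 4 lower (6.9%, against 7.63%). The mean of the probe sets gave 7 higher (11.7%, against 1.45%) and 5 lower (8.33%, against 5.28%).

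Eif3f and Eif5 passed under all 15 alternatives, Eif5a under 12 of 14, Eif3c under 11, Eef2k under 8 and Eef2 and Eif4a3 under 7 of 15 each. Eif3f and Eif5 have 1 member probe set each, so the alternatives that vary the probe set could not change their differences. The Eif5 probe sets shared with another locus were not read in any alternative. Without probe sets ending in _s_at or _x_at, Eef2k gave 0.02 and Eif3c 0.13, and Eif5a had no probe set left to test. Signs also turned for Eif2b3 with array weights (-0.55), Eif4ebp2 after renewed quantile normalization (0.12) and without CPC 1 (0.06, range -0.39 to 0.06 with 1 array left out), Eif5a2 over the mean of the probe sets (-0.27), Eif2s1 with array weights (0.12), without CPC 3 (0.88) and without Ctl 2 (0.14, range -1.04 to 0.88 with 1 array left out), and the shift of Eif4g3 minus Eif4g1 over the mean of the probe sets (-0.44), none of them called. The causes were not tested. Of the other comparisons for 25 named genes, 316 kept their side of the threshold, 28 lost and 20 gained a call.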
